A study of Mus musculus with 4 samples.

Results

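The 10 genes described here encode the working parts of NF-κB signalling, taken by symbol from a table of 24169 genes: the 5 subunits (Rela, Relb, Rel, Nfkb1, Nfkb2), 3 inhibitors (Nfkbia, Nfkbib, Nfkbie) and 2 genes of the IκB kinase complex, IKK (Ikbkb, Ikbkg). RNA came from C8-D1A, an established mouse astrocyte line, as cells kept for 24 h in 1 mM MBP (2 libraries) and cells left untreated (2 libraries, called controls). The labels give the compound only by that abbreviation, and the title of the series speaks of DBP given to mothers and places NF-κB between AKT and IL-6. The labels do not say whether the libraries of a group are separate cultures, so p-values measure only a spread between these samples that may be technical.

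NF-κB proteins act as dimers that wait in the cytoplasm, held by inhibitors of the IκB family. Signals from cytokine or pattern receptors activate IKK, which marks the inhibitors for degradation and so lets the dimers enter the nucleus. In the alternative branch, p100, the precursor made from Nfkb2, is processed so that RelB can act. In astrocytes the pathway is known for switching on chemokines, cytokines and adhesion molecules after injury or infection. All of these steps act on proteins, whereas the values here are transcript levels.

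Depth, worked out from the smallest steps between deposited values, ran from 23571000 to 25907000 reads per library (rounded). Of 9 astrocyte markers, Vim stood at 500.4 and 487.0 FPKM (fragments scaled to gene length and to all mapped reads) in the MBP libraries and 528.5 and 531.2 in the controls. S100b and Sox9 also passed the filter of at least 1 FPKM in at least 2 libraries. The other 6 did not, and the defining markers Slc1a3, Gja1 and Aqp4 lay at or near 0 in all 4 libraries, so the labelled cell type rests here on few of its markers. Summed markers of neurons were 27.1 and 26.4 FPKM in the MBP libraries against 36.5 and 33.6 in the controls, mostly from Tubb3, with 3 of 5 measured markers past the filter and Snap25 and Syt1 at or near 0. For the oligodendrocyte lineage (4 of 5 past the filter, mostly Sox10) the sums were 105.1 and 104.8 with MBP and 119.0 and 113.3 in controls. For microglia and macrophages (1 of 5, Tmem119, with Itgam and Ptprc at or near 0) they were 5.10 and 5.71 with MBP and 6.05 and 6.43 in controls, and for fibroblasts and pericytes (1 of 4, Pdgfrb, with Dcn at or near 0) 6.86 and 6.48 with MBP and 7.72 and 7.19 in controls. The endothelial sums overlapped, with 1 of 4 markers, Flt1, past the filter. The part of these markers in the results below was not tested. The samples are labelled as a single cell line, so these sums are transcript levels in that line and not counts of other cell types. In bulk RNA, fewer cells with a transcript and less of it per cell cannot be told apart.

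Several of the 10 genes are known targets of NF-κB itself, which makes them feedback genes, so their promoters are shown before their values. RefSeq promoters (250 bases before to 50 after the start site, GRCm38.p6) were found for 7 genes, 12 promoters in all. Relb, Nfkb1 and Ikbkb had no entry. The κB consensus, the 10-base motif that the dimers bind, was searched on both strands and occurred in at least 1 promoter of 4 genes: Rel, Nfkbia, Nfkbie and Nfkb2. It occurred in 8.46% of all 32851 promoters of the table. This share is per promoter, while a gene with several promoters is counted above if any of them matches. No match was found in the promoters of Rela and Nfkbib or in the 4 of Ikbkg. A match describes the letters only and is not evidence of binding. Capitals mark the consensus matches, and neighbouring or overlapping matches run together. Rela is shown as the subunit gene with no match. The third promoter of Nfkb2 is not printed, and its 1 match, at chr19:46305705-46305714, also lies in the second.
Nfkbia, chr12:55492598-55492897, minus strand: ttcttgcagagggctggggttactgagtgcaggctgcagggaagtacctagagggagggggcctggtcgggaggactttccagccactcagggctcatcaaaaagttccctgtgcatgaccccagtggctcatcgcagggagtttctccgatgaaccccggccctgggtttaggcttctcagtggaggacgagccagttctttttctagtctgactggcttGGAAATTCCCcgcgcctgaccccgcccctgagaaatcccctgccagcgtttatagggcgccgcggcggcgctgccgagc
Nfkb2, first start site, chr19:46304487-46304786, plus strand: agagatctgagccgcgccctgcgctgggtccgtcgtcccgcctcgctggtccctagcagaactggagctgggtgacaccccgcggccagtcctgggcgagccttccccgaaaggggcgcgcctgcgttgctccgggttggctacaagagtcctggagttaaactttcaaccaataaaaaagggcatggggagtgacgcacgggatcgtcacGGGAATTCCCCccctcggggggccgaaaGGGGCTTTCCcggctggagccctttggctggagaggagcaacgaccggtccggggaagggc
Nfkb2, second start site, chr19:46305445-46305744, plus strand: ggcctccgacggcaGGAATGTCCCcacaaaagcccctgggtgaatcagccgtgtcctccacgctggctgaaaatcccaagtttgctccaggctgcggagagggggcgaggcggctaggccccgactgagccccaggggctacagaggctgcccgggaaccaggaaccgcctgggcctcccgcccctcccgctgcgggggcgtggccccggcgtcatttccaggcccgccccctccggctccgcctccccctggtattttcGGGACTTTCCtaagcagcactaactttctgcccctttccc
Rel, chr11:23770920-23771219, minus strand: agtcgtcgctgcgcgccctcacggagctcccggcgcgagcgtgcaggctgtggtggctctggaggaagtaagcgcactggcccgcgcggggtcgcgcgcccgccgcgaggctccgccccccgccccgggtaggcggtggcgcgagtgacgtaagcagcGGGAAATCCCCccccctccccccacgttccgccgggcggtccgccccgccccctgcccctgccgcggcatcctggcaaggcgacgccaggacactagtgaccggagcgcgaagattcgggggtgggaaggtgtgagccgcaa
Nfkbie, chr17:45555450-45555749, plus strand: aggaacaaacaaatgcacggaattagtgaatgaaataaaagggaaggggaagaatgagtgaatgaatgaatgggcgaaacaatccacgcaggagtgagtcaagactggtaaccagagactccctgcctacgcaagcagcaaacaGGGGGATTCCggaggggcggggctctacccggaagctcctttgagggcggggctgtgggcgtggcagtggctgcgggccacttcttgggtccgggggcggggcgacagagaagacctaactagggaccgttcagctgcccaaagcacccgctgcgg
Rela, chr19:5637291-5637590, plus strand: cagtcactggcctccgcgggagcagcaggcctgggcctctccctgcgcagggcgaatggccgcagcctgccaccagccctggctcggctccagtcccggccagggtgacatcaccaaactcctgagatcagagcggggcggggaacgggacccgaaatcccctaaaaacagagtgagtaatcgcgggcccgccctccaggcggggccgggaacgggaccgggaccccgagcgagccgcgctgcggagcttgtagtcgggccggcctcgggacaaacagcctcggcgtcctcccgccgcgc

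In Nfkbia the match lay at chr12:55492667-55492676, at -29 to -20 relative to the start site, on the other strand of the promoter. In Nfkb2 a match at chr19:46304726-46304735 lay at -11 to -2 of the first start site, and GGGACTTTCC at chr19:46305705-46305714 lay 11 to 20 bases into the transcript of the second. In Rel the overlapping matches covered -92 to -82, and in Nfkbie the match covered -106 to -97.

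The level of each gene across the 4 libraries came first. Rela was highest in C8-D1A cells, Rel and Nfkbie were low, and Relb had less than 1 FPKM in each library. On the deposited scale the mean of the 4 libraries ran in the order Rela (37.6 FPKM), Nfkb2 (24.3), Nfkbia (17.7), Nfkb1 (12.7), Ikbkg (10.2), Nfkbib (7.37), Ikbkb (4.501), Rel (2.51), Nfkbie (1.12) and Relb (0.759). The ranges of neighbours in this order did not overlap across the 4 libraries, although the lowest value of Nfkbie (0.877) was close to the highest of Relb (0.874). On the same scale Rela made up 48.3% of the summed FPKM of the 5 subunits. Among 10366 protein-coding genes that passed the filter, 89.8% had a lower mean than Rela, 73.8% a lower mean than Nfkbia and 13.9% a lower mean than Rel.

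**Figure D1:**
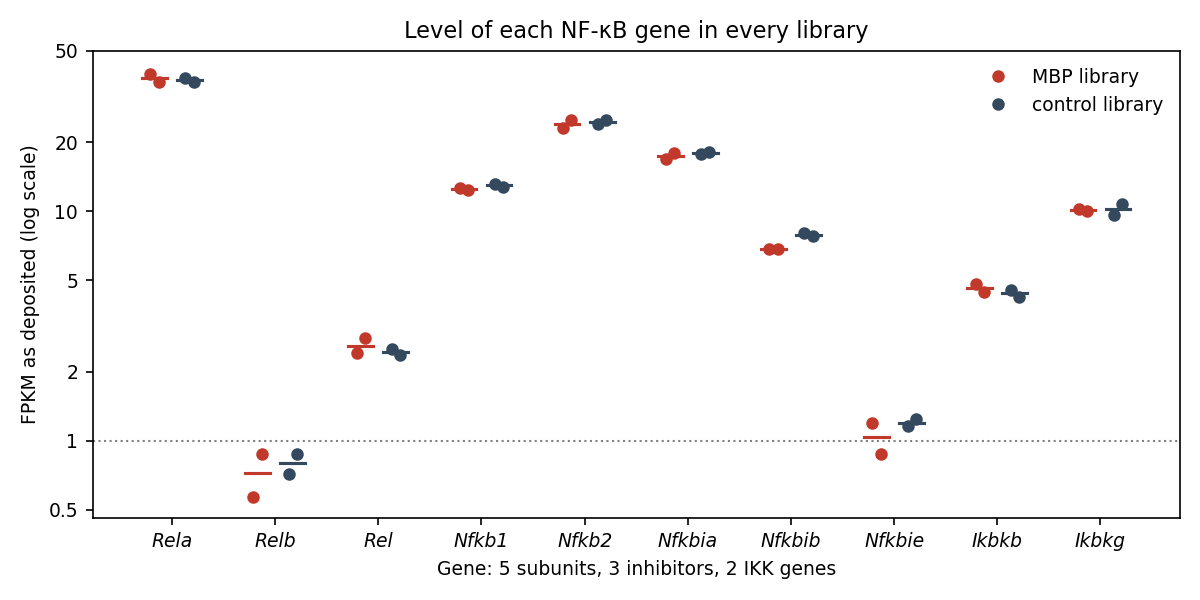
FPKM of the 10 genes in every library on a log axis, with MBP libraries left of controls for each gene; points are libraries, short bars are group means and the dotted line is 1 FPKM. Rela lies highest and Relb lowest, at 0.570 to 0.874 FPKM, and the groups of 8 genes overlap.

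This order depends on the length each gene is divided by. The deposited values divide by the summed length of all annotated exons, which for 7 of the 10 genes gave whole reads within 0.05 in all 4 libraries when GENCODE release M21 lengths were used. For Rela, Nfkb2 and Nfkbie it did not, so no read numbers are given for these and their rescaled levels are approximate. Ikbkb has 14 annotated transcripts and 19078 bases of summed exons, while its longest transcript has 4845. Nfkb1 has 10 transcripts, 12061 bases of summed exons and a longest transcript of 4149. Divided by the longest transcript, Nfkb1 took rank 2 at 36.9 FPKM, after Rela at 42.6 and before Nfkb2 at 28.9. Ikbkb took rank 5 at 17.7 FPKM, where its range overlapped that of Nfkbia (18.0). The ranges of Nfkbie (1.13) and Relb (0.901) then overlapped too. Comparisons between MBP and control within a gene do not involve the length, apart from its effect through the added 1 before the logarithm.

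**Figure D2:**
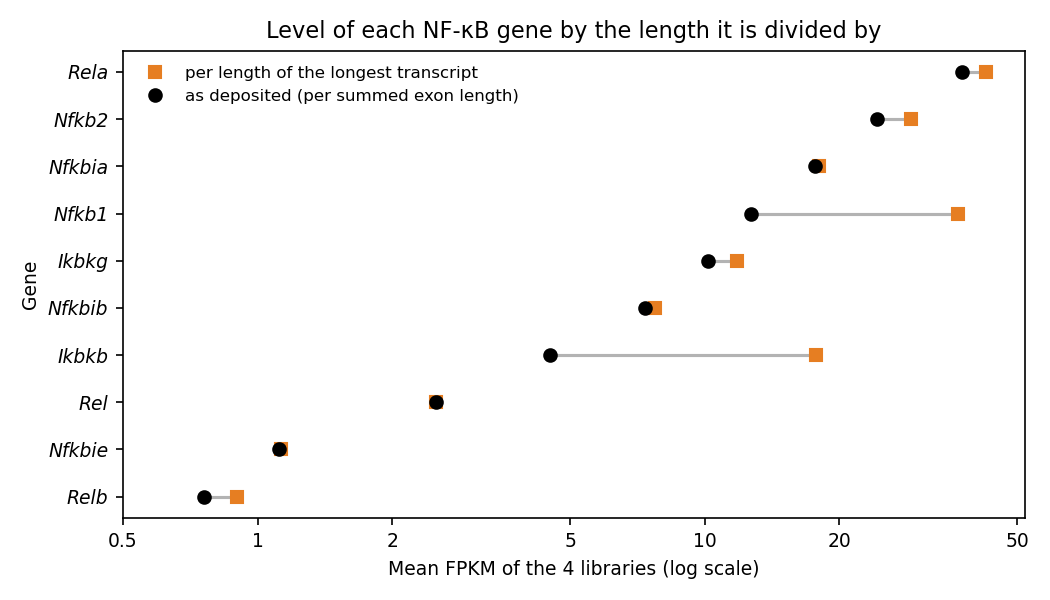
Mean FPKM of the 4 libraries for each gene on a log axis, as deposited (circles) and divided by the longest transcript (squares). Nfkb1 (12.7 against 36.9) and Ikbkb (4.501 against 17.7) shift most, and Rel, with 1 annotated transcript, does not shift.

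The main comparison asked whether MBP changed the transcript of any of the 10 genes. None was called. With limma's moderated test on log2(FPKM + 1), an adjusted p under 0.05 was found for 0 of the 9 tested genes and for 0 (0%) of the 12403 genes tested. Log2 fold changes of the 9 ran from -0.18 to 0.07 with a median of -0.03, where the median of all genes tested was -0.00477. The 95% intervals together spanned -0.46 to 0.32, or 0.729-fold to 1.25-fold of FPKM + 1. An unadjusted p under 0.05 was seen for 1 of the 9 (Nfkbib, lower in MBP), against 9.68% of all genes (5.87% lower and 3.81% higher). The groups did not overlap for 2 of the 9, both lower in MBP (Nfkb1 and Nfkbib), against 44.8% of all genes (23.5% lower and 21.3% higher), and the members' share was not above this background. Limma-voom on recovered reads, a second tool that could take in Relb, called 0 of the 10 (0.124% of 14518 genes) and had 0 at an unadjusted p under 0.05 (11.5%).

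**Figure D3:**
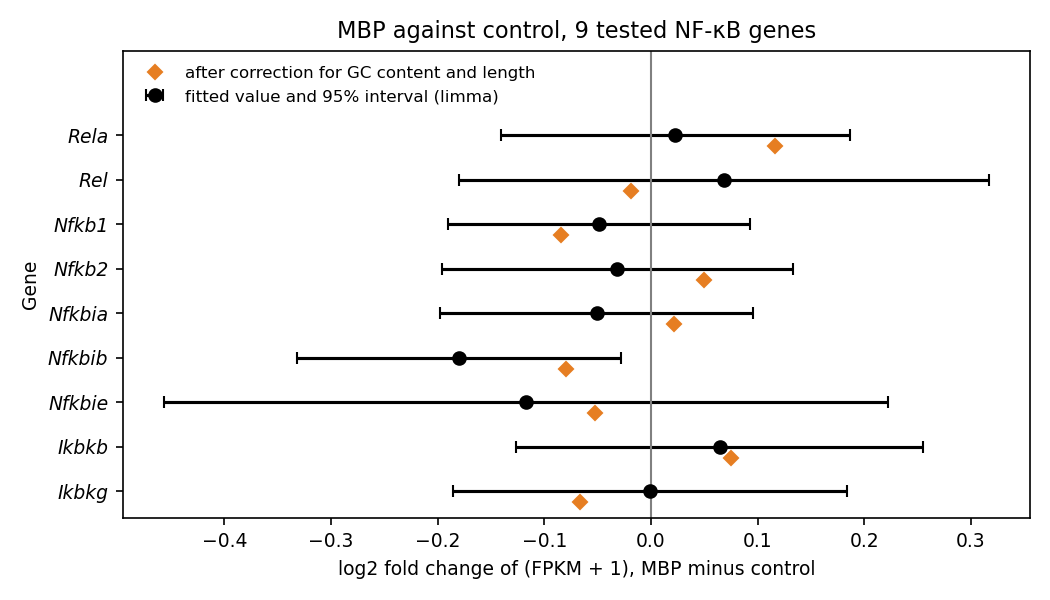
Log2 fold change of FPKM + 1, MBP minus control, for the 9 tested genes, with limma's 95% interval (bars) and the value after correction for GC content and length (diamonds). Only the interval of Nfkbib, -0.33 to -0.03, leaves out 0, and its corrected value is -0.08.

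Among the subunits, Rela (ENSMUSG00000024927, chromosome 19, 5637483 to 5648130, plus strand, GRCm38) encodes p65, which carries the activation domain of the main dimer. It had 39.4 and 36.4 FPKM in the MBP libraries and 38.2 and 36.4 in the controls. One MBP library was the highest and the other matched the lower control, so the groups overlapped. The means were 37.9 ± 2.12 FPKM with MBP and 37.3 ± 1.25 in controls (SD, n = 2 each). The log2 fold change was 0.02, with a 95% interval of -0.14 to 0.19 and a limma adjusted p of 0.919, and its sign turned when the first MBP library was left out (-0.033). Corrected for GC content and length, it stood at 0.12.

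Nfkb1 (chromosome 3, 135584655 to 135691547, minus strand) encodes p105, an inhibitor by itself, and its product p50, the usual partner of p65. Its MBP libraries had 12.6 and 12.3 FPKM, from 3646 and 3855 reads, and its controls 13.1 and 12.7, from 3861 and 3619 reads. Both MBP libraries lay under both controls by a small margin. The log2 fold change was -0.05 (-0.19 to 0.09, limma adjusted p = 0.762) with means of 12.5 ± 0.1998 FPKM with MBP and 12.9 ± 0.295 in controls (SD, n = 2 each). After the GC and length correction Nfkb1 stood lower than before, at -0.084. This was the lowest corrected value of the tested subunit, inhibitor and IKK genes, just under Nfkbib at -0.079.

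Nfkb2 (chromosome 19, 46304737 to 46312090, plus strand), the source of p100 and p52, had 22.999 and 25.01 FPKM with MBP and 24.04 and 25.05 in controls. One MBP library was the lowest and the other lay between the controls, so the groups overlapped. The log2 fold change was -0.03 (-0.20 to 0.13), and 0.050 after the correction. Of its exon bases, 6.52% lie opposite Psd, which had at most 0.457 FPKM, and 11.6% opposite AC114539.1, a non-coding gene with no value used here, so its level is uncertain if strand was not used in counting.

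Rel (chromosome 11, 23736847 to 23770970, minus strand) encodes c-Rel, best known from lymphocytes. It had 2.40 and 2.79 FPKM in the MBP libraries, from 429 and 540 reads, against 2.497 and 2.35 in the controls, from 454 and 414 reads. The second MBP library was the highest of the 4 and the first lay between the controls. The log2 fold change was 0.07 (-0.18 to 0.32), and -0.019 after the correction.

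Relb (chromosome 7, 19606217 to 19629438, minus strand), the RelB subunit of the alternative branch, stayed under the filter and was not in the main test. It had 0.570 and 0.874 FPKM with MBP and 0.719 and 0.874 in controls. These rest on 53 and 88 reads with MBP and 68 and 80 in controls. Exact Poisson 95% intervals, which cover counting error only, ran from 39.7 to 69.3 and from 70.6 to 108.4 reads for the MBP libraries and from 52.8 to 86.2 and from 63.4 to 99.6 for the controls. One MBP library was the lowest of the 4, and the other was level with the higher control. Its log2 fold change in limma-voom was -0.15, with bounds of -0.68 and 0.37 (95%) and an adjusted p of 0.843.

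All 3 inhibitors had log2 fold changes below 0, none of them called, and after the GC and length correction Nfkbia stood above 0 (0.022). Nfkbia (chromosome 12, 55489410 to 55492647, minus strand) encodes IκBα, the fast inhibitor that NF-κB induces to end its own signal. It had 16.8 and 17.8 FPKM in the MBP libraries, from 649 and 744 reads, and 17.8 and 18.2 in the controls, from 698 and 689 reads. One MBP library lay lowest and the other fell between the controls. The log2 fold change was -0.05 (-0.20 to 0.10, limma adjusted p = 0.76) with means of 17.3 ± 0.713 FPKM with MBP and 18.0 ± 0.248 in controls (SD, n = 2 each).

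Nfkbib (chromosome 7, 28758251 to 28767512, minus strand) encodes IκBβ, which is degraded more slowly. It had 6.87 and 6.83 FPKM in the MBP libraries, from 357 and 384 reads, and 8.03 and 7.77 in the controls, from 424 and 397 reads. Both MBP libraries lay under both controls, and the gap was wider than the spread within either group. The means were 6.85 ± 0.0266 FPKM with MBP and 7.90 ± 0.186 in controls (SD, n = 2 each), and the log2 fold change was -0.18. Its 95% interval ran from -0.33 to -0.03, and limma's p was 0.0284 unadjusted and 0.503 adjusted. Limma-voom, which includes counting error, gave -0.20 at an unadjusted p of 0.0805. The transcript of Nfkbib is rich in G and C (58.8%). With tested genes split into eighths by GC content, the median log2 fold change fell from 0.08 in the lowest eighth to -0.09 in the highest. Nfkbib belongs to the highest eighth, and so do Rela (59.4%) and Nfkb2 (59.4%). The part of GC content in the value of Nfkbib was not tested. After the correction Nfkbib stood at -0.08 (limma adjusted p = 0.801). Some of its exon bases lie opposite other genes: 14.5% opposite Ccer2, at 0 in 3 libraries and 0.0390 FPKM in the first control, and 1.94% opposite Sirt2, at 15.0 and 14.2 FPKM with MBP and 14.6 and 14.9 in controls.

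Nfkbie (chromosome 17, 45555716 to 45563169, plus strand) encodes IκBε, another inhibitor that NF-κB induces. It had 1.19 and 0.877 FPKM with MBP and 1.15 and 1.24 in controls. The second MBP library was the lowest of the 4, while the first lay between the controls. The log2 fold change of -0.12 had the widest interval of the 9, -0.46 to 0.22, and moved to -0.0056 when the second MBP library was left out. After the correction Nfkbie stood at -0.05. With a pseudocount of 0.1, which shrinks low genes less, its log2 fold change was -0.21. Limma-voom gave -0.23 (-0.70 to 0.24).

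Of the IKK genes, Ikbkb (chromosome 8, 22659212 to 22706589, minus strand) encodes IKKβ, the kinase of the canonical branch. It had 4.79 and 4.46 FPKM in the MBP libraries, from 2189 and 2204 reads, and 4.52 and 4.24 in the controls, from 2098 and 1906 reads. The groups overlapped, and the log2 fold change was 0.06 (-0.13 to 0.26, limma adjusted p = 0.763), and 0.08 after the correction. Ikbkg (chromosome X, 74393290 to 74453854, plus strand) encodes NEMO, the regulatory subunit. It had 10.3 and 10.1 FPKM with MBP, from 1994 and 2112 reads, and 9.61 and 10.8 in controls, from 1897 and 2056 reads. The MBP libraries lay between the controls. Its log2 fold change was -0.0011 (-0.19 to 0.18), and -0.07 after the correction. Ikbkg shares 5.15% of its exon bases with G6pdx on the opposite strand, which had 82.7 and 86.1 FPKM with MBP and 89.8 and 89.7 in controls, so its level is uncertain if strand was not used in counting.

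The balance between inhibitors and subunits was compared within libraries, since a ratio of FPKM does not depend on library scaling. Summed FPKM of the 5 subunits was 78.03 and 77.45 with MBP and 78.60 and 77.43 in controls. For the 3 inhibitors it was 24.89 and 25.55 with MBP and 26.99 and 27.16 in controls. Their ratio was 0.319 and 0.330 in the MBP libraries against 0.343 and 0.351 in the controls, so both MBP libraries lay lower. The log2 difference was -0.10 with an exact two-sided permutation p of 0.333, the smallest that 2 against 2 libraries can give. For Nfkbia over Rela alone the ratio was 0.427 and 0.490 with MBP and 0.466 and 0.498 in controls, and the groups overlapped (log2 difference -0.08, exact permutation p = 0.667). Divided by the longest transcripts, the ratio of inhibitors to subunits was 0.229 and 0.237 with MBP and 0.245 and 0.251 in controls. Mean FPKM with MBP and in controls was 6.85 and 7.90 for Nfkbib, 17.3 and 18.0 for Nfkbia and 1.03 and 1.20 for Nfkbie. Much of the lower inhibitor sum was thus Nfkbib. The ratio was not computed with the GC and length correction, which moved genes on both sides of it. Fold changes rose for Nfkbia (to 0.02), Nfkbib (to -0.08) and Nfkbie (to -0.05). Among subunits they rose for Rela (to 0.12) and Nfkb2 (to 0.05) and fell for Nfkb1 (to -0.08) and Rel (to -0.02).

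The ratio of the alternative pair, Relb and Nfkb2, to the canonical pair, Rela and Nfkb1, was 0.453 and 0.531 with MBP and 0.482 and 0.527 in controls. The groups overlapped, with a log2 difference of -0.04 and an exact permutation p of 1. Nearly all of the numerator was Nfkb2: Relb over Rela stood at 0.0144 and 0.0240 with MBP and 0.0188 and 0.0240 in controls. The sign of this difference turned when the first MBP library or the second control was left out (0.07 and 0.02).

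**Figure D4:**
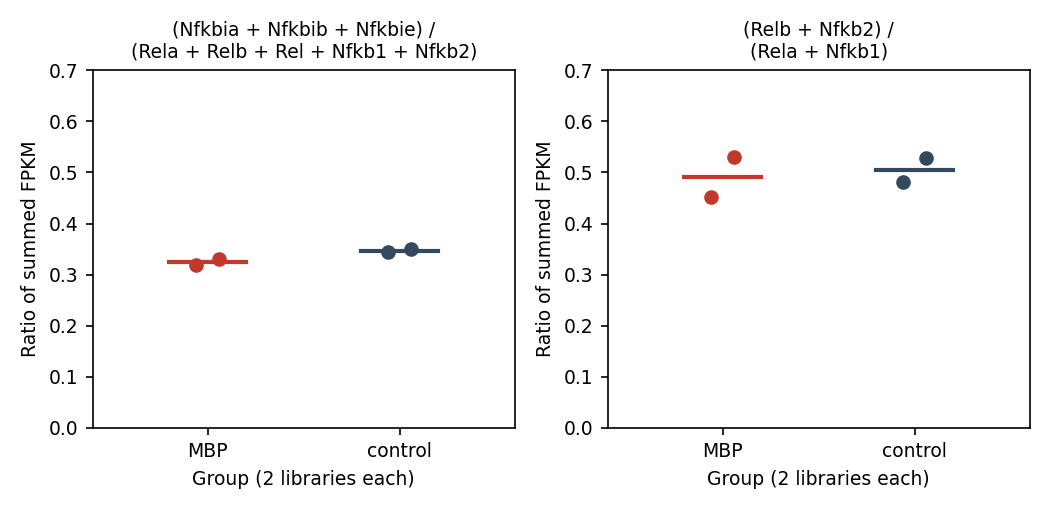
Ratio of summed FPKM per library for the 3 inhibitors over the 5 subunits (left) and for Relb and Nfkb2 over Rela and Nfkb1 (right), with MBP left of control; points are libraries and bars are means. On the left both MBP points, 0.319 and 0.330, lie under the control points, and on the right the groups overlap.

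The genes around these 10 were taken from lists of 59 pathway genes by role, 48 of them past the filter. Limma called 0 of the 48, with 1 at an unadjusted p under 0.05 (9.68% of all genes). Limma-voom called 0 of 53, with 4 at an unadjusted p under 0.05 (11.5% of all genes). Among the 48, 25 fold changes were above 0 and 23 below, and the median was 0.02. Of all genes tested, 48.4% were above 0. Their groups did not overlap for 14 higher and 9 lower, against 21.3% and 23.5% of all genes. Values are given for up to 4 genes a list with the lowest p.

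Of 27 receptors and adaptors, 21 passed the filter, with a median log2 fold change of -0.04, which the correction for GC content and length brought to 0.0037. Il1rap, the shared subunit of the interleukin-1 receptor, had 20.9 and 20.7 FPKM with MBP and 19.2 and 18.7 in controls (0.13, limma adjusted p = 0.517, and 0.06 after the correction). Birc2 and Traf6, ubiquitin ligases that relay receptor signals, stood at 0.15 and 0.14, or at 0.10 and 0.09 after the correction. Tnfrsf12a, the receptor for the cytokine TWEAK, had 149 and 142.7 FPKM with MBP against 154.4 and 173.8 in controls (-0.17, and -0.05 after the correction). Tlr2, Cd40, Traf1, Birc3, Ticam2 and Irak3 lay under the filter, with at most 57 reads in a library.

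All 10 other kinases and their partners passed the filter. Their fold changes were above 0 for 8 and below 0 for 2, with a median of 0.08 (0.05 after the correction, with 9 above 0), and groups did not overlap for 6 higher and 1 lower, where the shares over all genes were 21.3% and 23.5%. Chuk, which encodes IKKα, the third IKK subunit and the kinase of the alternative branch, had 20.03 and 20.7 FPKM with MBP and 18.8 and 18.1 in controls. Both MBP libraries lay above both controls, at a log2 fold change of 0.14 (-0.0035 to 0.28, limma adjusted p = 0.516), or 0.08 after the correction. Tab2 and Tank, adaptors of the TAK1 and TBK1 kinases, stood at 0.14 each, or at 0.13 and 0.07 after the correction. Tab1, another TAK1 partner, had 6.45 and 6.35 FPKM with MBP against 7.38 and 7.35 in controls, at -0.18 on the log2 scale (limma adjusted p = 0.503) and -0.09 after the correction. The GC content of its transcript, 58.2%, was in the highest eighth, like that of Nfkbib.

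Of 14 genes of ubiquitin signalling and degradation, 13 passed the filter, with a median of -0.02 (-0.01 after the correction). Tnfaip3, which encodes A20, a feedback brake that NF-κB induces, had 2.88 and 2.80 FPKM with MBP and 2.90 and 3.25 in controls (-0.08, limma adjusted p = 0.733), and the correction put it at -0.12. Its partner Tnip1 stood at -0.13 and the deubiquitinase Cyld at 0.12, or at -0.04 and 0.04 after the correction. Skp1a, part of the ligase that marks phosphorylated IκB, stood at -0.20 before and after the correction, with groups that overlapped. Of 8 atypical inhibitors and nuclear regulators, 4 passed (Nfkbiz, Nfkbil1, Nkiras2 and Pdlim2), at 0.07, -0.11, -0.13 and 0.02. After the correction Nfkbil1 stood at 0.03, Nkiras2 at -0.05, Pdlim2 at 0.10 and Nfkbiz at 0.08, and the median of the 4 was 0.05 instead of -0.05. Bcl3 and Nfkbid lay under the filter, with 3 to 7 and 6 to 13 reads. Nkiras1 and Commd1 also lay under it but had more reads. Nkiras1 had 114 and 152 reads with MBP and 104 and 100 in controls (limma-voom 0.32, adjusted p = 0.533). Commd1 had 96 and 105 with MBP and 100 and 96 in controls.

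Transcripts that NF-κB is known to induce were the last group. Of 38 listed, 34 were in the table and 16 passed the filter. Of the classical inflammatory targets, Ccl2, Ccl7, Cxcl10, Vcam1 and Csf1 passed it, whereas Tnf, Il6, Icam1 and Ccl5 were among the 18 that did not. Each of these 18 had at most 29 reads in a library. Tnf had 1 and 0 reads with MBP and 0 and 0 in controls. Il6, the cytokine of the title, had 11 and 17 reads with MBP and 12 and 7 in controls. Icam1, an adhesion molecule, had 29 and 17 reads with MBP and 9 and 14 in controls. The chemokine Ccl5 had 7 and 9 with MBP and 2 and 3 in controls. Other chemokines among the 18 had lower means with MBP. Ccl20 had 9 and 6 reads with MBP and 8 and 10 in controls, and Cxcl5 had 0 and 1 against 2 and 2. For Icam1 limma-voom gave 0.89 on the log2 scale (-0.05 to 1.82, adjusted p = 0.456), and for Il6 0.50 (-0.49 to 1.48, adjusted p = 0.699). The other 16 of the 18 had too few reads for that test.

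Among the 16 target genes tested, limma called 0, with 3 at an unadjusted p under 0.05 (9.68% of all genes). Limma-voom called 0 of 18, with 4 at an unadjusted p under 0.05 (11.5% of all genes). Fold changes were above 0 for 6 and below 0 for 10, with a median of -0.07, or -0.04 after the correction. Of all genes tested, 48.4% were above 0. Groups did not overlap for 3 higher and 7 lower, against 21.3% and 23.5% of all genes. The chemokine Ccl2 had 23.6 and 27.4 FPKM with MBP and 29.6 and 33.2 in controls, with no overlap (-0.29, 95% interval -0.54 to -0.05, limma adjusted p = 0.503), and the correction left it at -0.30. Zc3h12a, an RNase that degrades cytokine transcripts, had 2.66 and 2.25 FPKM with MBP and 3.11 and 3.11 in controls (-0.25, limma adjusted p = 0.512), and -0.17 after the correction. Cxcl10, another chemokine, went the other way, at a low level close to the filter. It had 1.61 and 1.37 FPKM with MBP and 1.26 and 1.09 in controls, with no overlap. Its log2 fold change of 0.20 was the highest of the 16 (limma adjusted p = 0.598), and the correction left it at 0.21. Xiap and Cflar, which hold back cell death, stood at 0.18 and 0.15, or at 0.05 and 0.09 after the correction. Il1b, Ptgs2, Bcl2a1b and Plau were not analysed here.

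**Figure D5:**
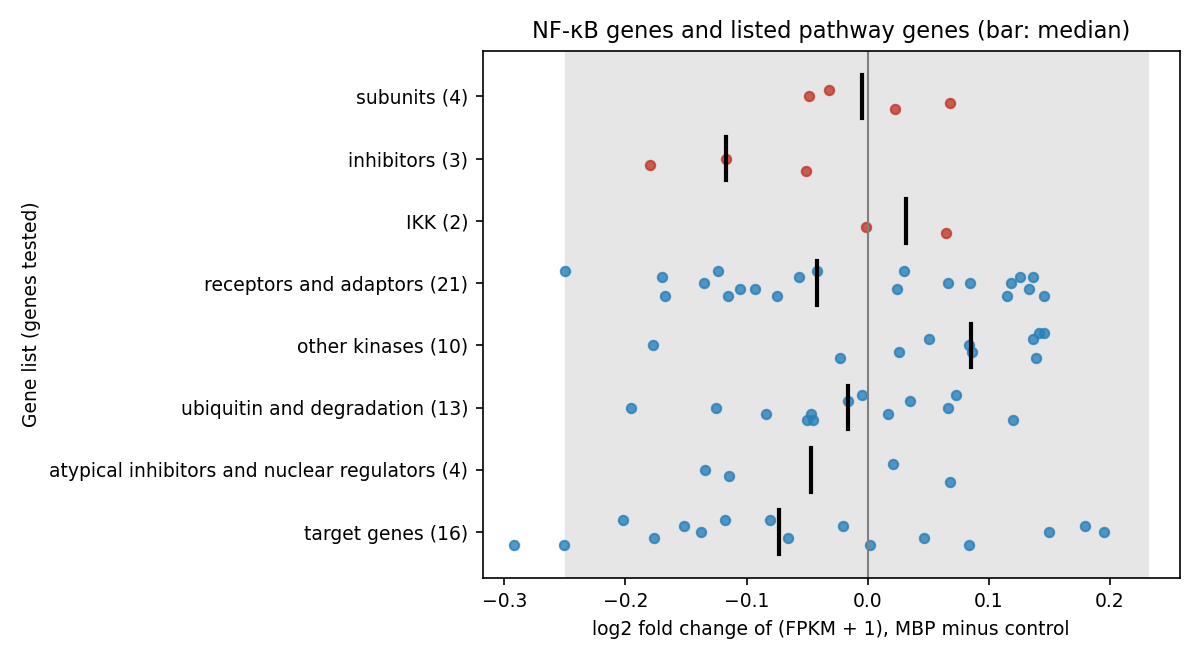
Log2 fold change of FPKM + 1, MBP minus control, for each tested gene of the lists (points; vertical bars are medians), with the band that holds the middle 90% of all 12403 genes (-0.25 to 0.23) in grey. Except for Irak4 (-0.25) among the receptors and adaptors, and Ccl2 (-0.29) and Zc3h12a (-0.25) among the targets, which lie at or beyond its lower edge, the points fall inside the band.

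Likeness over the 4 libraries was described by the root mean square difference of mean-centred log2(FPKM + 1) between each tested gene and the 56 other tested genes of the family and the pathway lists. Nfkb2 and Nfkbia were closest to each other (0.0193). Nfkb1 was closest to Rnf31 (0.0128), Nfkbib to Tab1 (0.0141), Rela to Otulin (0.0151) and Ikbkb to Tbk1 (0.0209). Rel, Ikbkg and Nfkbie had no neighbour closer than 0.0343, 0.0370 and 0.0407. The median difference to the 56 genes was 0.0721 to 0.126, and 4 libraries are few for such a measure.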

How the data were processed

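RNA was sequenced from 4 samples of one cell line, after removal of ribosomal RNA and with a directional library kit, per the labels' protocols. Tools and build in the submitters' processing notes are HISAT2, bcl2fastq and GRCm38. The use of strand in counting, the counter, the annotation and all versions were not given in the sources used here. FPKM per gene, which are not counts, were deposited by the authors. Columns were matched to samples by title, and replicates were numbered in accession order, which pairs nothing.

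Exon lengths, transcript lengths and GC content came from GENCODE mouse release M21, which held 24121 of the identifiers, and coordinates are those of the deposited table. FPKM times summed exon length gave multiples of a fixed step within each library for 93.8% to 94.0% of values under 1000 reads (tolerance 0.05), which gave reads and depth. Molecular identifiers are not described, so reads are not independent molecules.

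Genes with at least 1 FPKM in at least 2 libraries were tested on the log2(FPKM + 1) scale, which understates the change of low genes. The test was limma 3.58.1 in R 4.3.3 (eBayes with a trend), two-sided, MBP minus control, with Benjamini-Hochberg adjustment over all genes and a threshold of 0.05. In simulated libraries its intervals covered planted changes on that scale about as often as stated, though not the larger fold of FPKM itself. Its adjusted calls there held more false ones than the threshold implies. The simulated libraries were independent, with the same spread setting for all genes and no trend with GC content, unlike the trend seen here. Coverage in the real libraries was therefore not tested. Ratios used exact permutation over libraries. Alternatives were a pseudocount of 0.1, no filter, a filter of 5 FPKM, TPM, median-of-ratios scaling, no spread trend, protein-coding genes only, a loess correction (GC content and length), limma-voom on recovered reads (mean of 10 or more), and each library left out. Division by the longest transcript was added for the ratios after seeing the data. All 10 genes are named, and from each list up to 4 with the lowest p, and other list genes named were chosen after their values were seen. The genes and lists were chosen with earlier results of these data known.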

Additional observations from a re-analysis of the deposited data

How the results depend on the processing

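The count of called genes among the 10 stayed at 0 under each alternative, leave-one-out fits included, and so did the counts for pathway and target genes. The lowest adjusted p among the 10 was 0.316, without the first control library. Over the whole table limma-voom on recovered reads called 18 genes, none of them in these lists, where the main test called 0 (lowest adjusted p 0.392, 1201 genes at an unadjusted p under 0.05); the cause was not tested. Of 115 alternative values of single fold changes 104 kept their sign, and 5 genes (Relb, Nfkb1, Nfkbib, Nfkbie and Ikbkb) kept it throughout. With the GC and length correction Nfkb2 stood at 0.05004, Nfkbia at 0.0217 and Rel at -0.0185. Ikbkg stood at 0.0208 with TPM and at 0.0042 with median-of-ratios scaling. With 1 library left out, Rela ran from -0.0329 to 0.0784, Rel from -0.0107 to 0.147, Nfkb2 from -0.0897 to 0.0263, Ikbkg from -0.0753 to 0.0731, the ratio of alternative to canonical subunits from -0.156 to 0.0736 on the log2 scale and that of inhibitors to subunits from -0.122 to -0.0734. Neither ratio was computed with the GC and length correction. In the fits with 1 library in a group, that library is assumed to vary like the others. No paired analysis was possible because the labels give no replicate numbers that tie libraries across groups. Relb was tested only without the filter and on reads, with no library left out. Of the 10 genes, Relb and Nfkbie had the lowest levels and the fewest reads. The 18 targets and 11 pathway genes under the filter were low too, with at most 29 and 152 reads in a library. Cxcl10, though tested, rested on 58 to 87 reads.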
